A study of Saccharomyces cerevisiae with 22 samples.

Results

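The iron uptake genes described here are 9 genes of Saccharomyces cerevisiae, chosen by name out of 5912 genes tested and 6225 genes on the array. They are FTR1 (YER145C), FET3 (YMR058W), FET4 (YMR319C), SIT1 (YEL065W), ARN1 (YHL040C), ARN2 (YHL047C), ENB1 (YOL158C), FIT2 (YOR382W) and FIT3 (YOR383C). FTR1 was included because it lies in a stretch of chromosome V that the study lists as deleted from a chromosome copy in most of its evolved lines. The labels do not say which of those lines B3, D11 and H9 are, so the deletion is not documented here lineage by lineage. The study lists a shorter loss in 1 of those lines. The part lost in all lines with the deletion is called the listed stretch below. The other 8 genes lie outside the listed copy number segments. Expression was measured on 22 one-colour arrays in 8 groups. The strain was a self-diploid derivative of BY4742 with mating type α, and it carries deletions of his3, leu2, lys2 and ura3. One plasmid, single-copy with a LEU2 marker, encoded the Ser-tRNACAG of Candida albicans, which puts serine at leucine CUG codons, and the other was the empty vector. Strains B3, D11 and H9 had been evolved with the tRNA plasmid, and each is the descendant of a single clone and was isolated as a single colony, so that a lineage stands for 1 genotype only. The groups were B3, D11, H9 and the non-evolved ancestor, each with the tRNA and each with the empty vector, which in the evolved lineages replaced the tRNA plasmid. All cultures grew exponentially in synthetic complete medium without leucine. Each group had 3 arrays, apart from the empty vector groups of B3 and the ancestor, which had 2. Nothing in the labels says more of the replicates than that they were independent experiments, and p-values measure the spread between these arrays.

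Yeast takes up iron at the cell surface by several routes. In the high-affinity route, the multicopper oxidase Fet3 oxidises ferrous iron and passes it to the permease Ftr1, and the 2 proteins need each other to reach the plasma membrane. Siderophores, the iron chelators that microbes release, are imported by Sit1, Arn1, Arn2 and Enb1, while Fit2 and Fit3 are mannoproteins of the cell wall that help to retain siderophore iron. These genes are activated together by Aft1 and Aft2 when iron is scarce. Fet4 is a low-affinity transporter of iron and other divalent metals, and its gene is also repressed by the hypoxic regulator Rox1.

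A level is the log2 signal of a gene minus the median log2 signal of its array, so that levels of 1 gene can be compared across arrays but not levels of different genes. A change is a difference of mean levels, evolved minus ancestor or tRNA minus empty vector. A gene passed at a Benjamini-Hochberg adjusted p under 0.05 in a limma model over all 22 arrays and 5912 genes. Each of the 9 genes had at least 1 of its 2 spots well above background on every array. Signals come from whole cultures, and fewer cells with a transcript cannot be told apart from less transcript per cell.

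The median signal of an array was between 356 and 2278, and 85.8 to 95.0% of spots were well above background. The marker LYS2 was above background on 0 arrays, URA3 on 4 and HIS3 on 5 of the 22 arrays, while LEU2 and the α genes MFALPHA1, MFALPHA2 and STE3 were above it on all 22. Of the genes of mating type a, MFA1 and STE2 were also above background on all 22 arrays, at low levels with medians of -3.86 and -3.64, and MFA2 on 12. The replicate number was also the slide number, and slide 3, with all replicate 3 arrays, was scanned on another day and held no empty vector array of B3 or the ancestor, so that scan day and array cannot be told apart for the third empty vector arrays of D11 and H9. Several arrays stood apart. Each probe has 2 spots, and on D11 empty vector replicate 3 and D11 tRNA replicate 2 these differed over 8-fold for 482 and 226 probes, against 14 to 42 probes on the other 20 arrays. The interquartile range of the dimmer spots covered rows 89 to 110 and columns 38 to 46 on the first of these arrays, and in rows 97 to 115 and columns 37 to 42 on the other, out of 192 rows and 82 columns. Values that rest on such a spot are therefore given below with and without it. Ancestor tRNA replicate 2 lay between the ancestor empty vector arrays and the other ancestor tRNA arrays for 8 of the 9 iron uptake genes, ENB1 being the exception. Where leaving it out gave or ended a call or turned a direction against the ancestor, this is said beside the result.

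**Figure D1:**
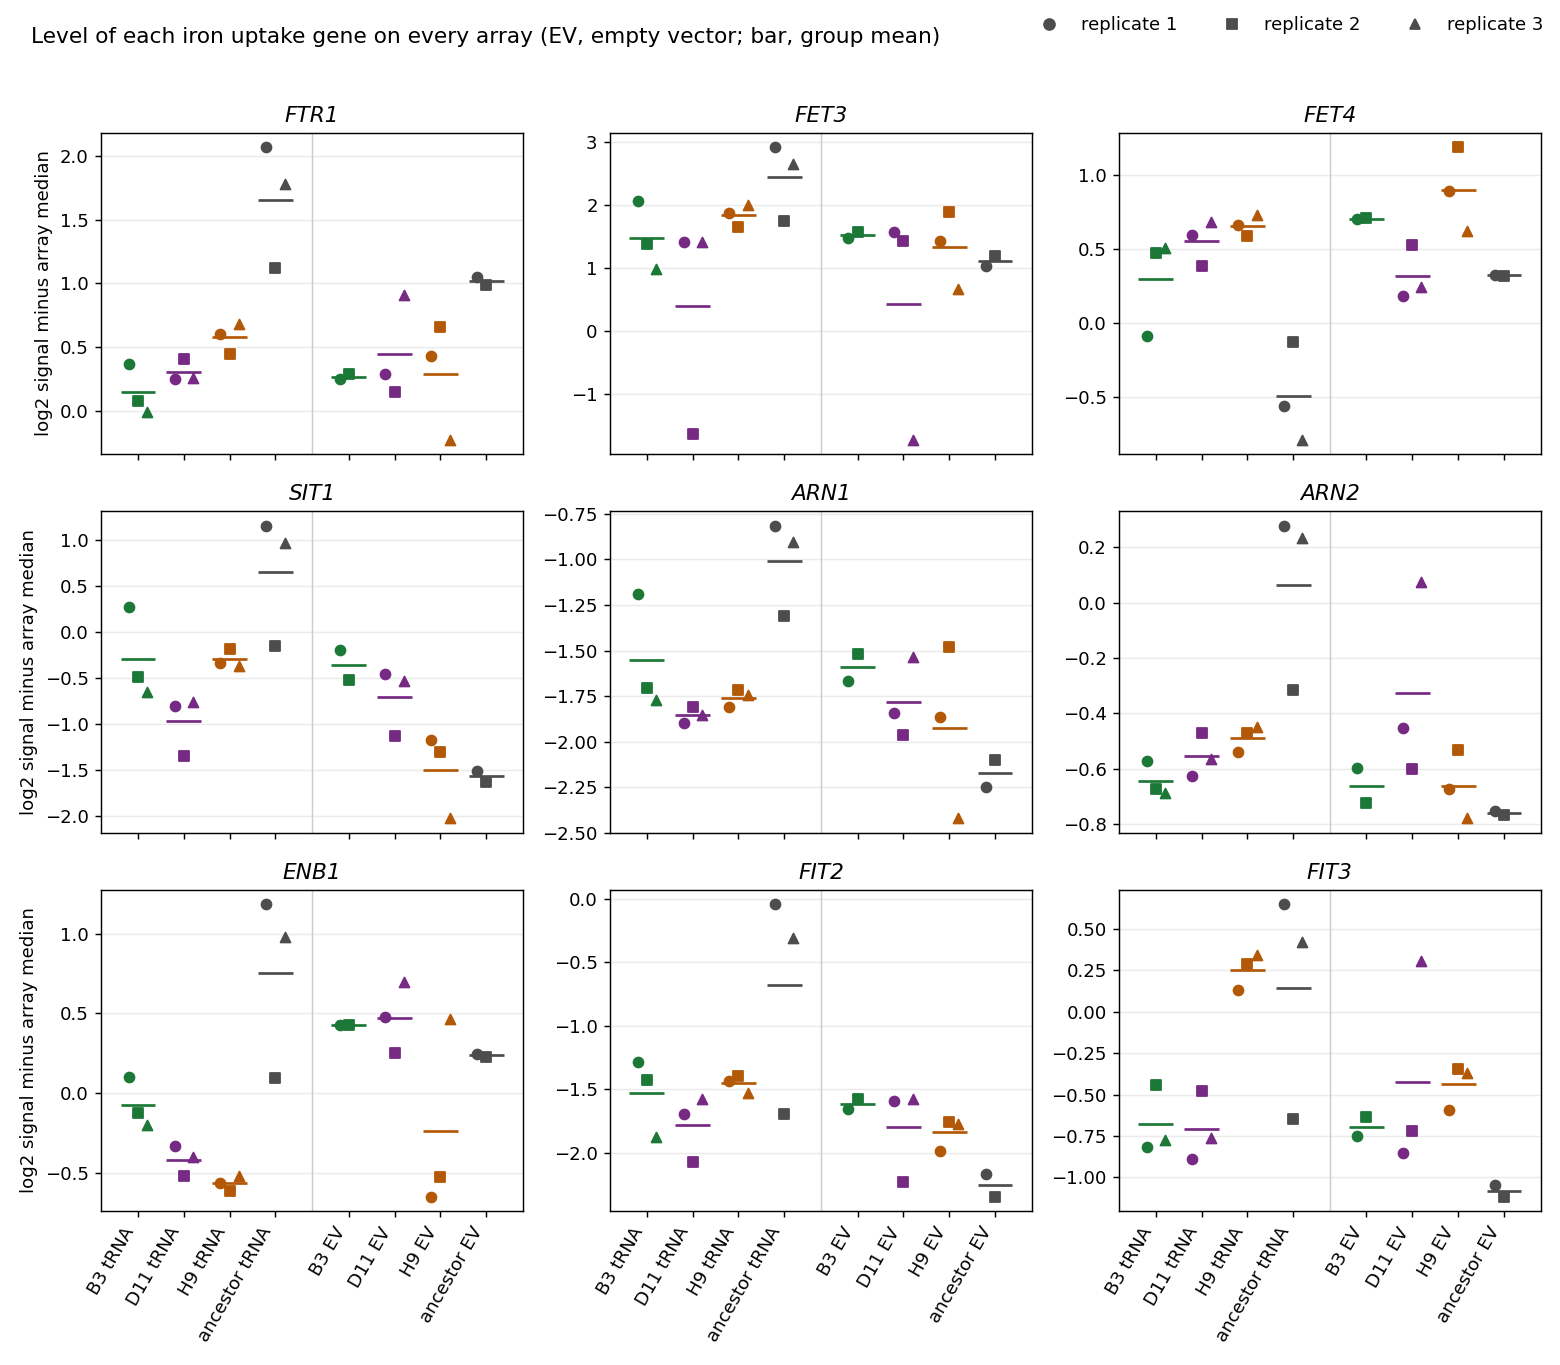
Level of each of the 9 iron uptake genes on every array (vertical axes, log2 signal minus array median, each panel with its own scale), with the tRNA groups to the left of the empty vector groups. Points are arrays, symbols give the replicate number and bars give group means. The ancestor with the tRNA is the highest group for 7 of the 9 genes and the lowest for FET4, and 2 D11 arrays stand far below the rest for FET3.

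FTR1, the permease gene in the listed stretch, was lower in every evolved group than in the ancestor. With the tRNA its level was 0.37, 0.08 and -0.01 in B3, 0.25, 0.41 and 0.26 in D11, and 0.60, 0.45 and 0.69 in H9, against 2.07, 1.12 and 1.78 in the ancestor. No evolved array reached the lowest ancestor array. FTR1 fell by 1.51 in B3 (SE 0.24, limma adjusted p 0.00117), by 1.35 in D11 (SE 0.24, limma adjusted p 0.00162) and by 1.08 in H9 (SE 0.24, limma adjusted p 0.00584) on the log2 scale, which left 0.351, 0.392 and 0.474 of the ancestor signal. All 3 calls held in the limma fit when any 1 array was left out, with changes between -1.78 and -0.87. Within a slide, the change was between -1.81 and -0.67.

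In the empty vector groups the FTR1 level was 0.25 and 0.29 in B3, 0.29, 0.15 and 0.91 in D11, and 0.43, 0.66 and -0.22 in H9, against 1.05 and 0.99 in the ancestor. Again the groups did not overlap, although D11 replicate 3 came close to the ancestor arrays. The changes were -0.75 in B3 (SE 0.29, limma adjusted p 0.0993), -0.57 in D11 (SE 0.27, limma adjusted p 0.119) and -0.73 in H9 (SE 0.27, limma adjusted p 0.208), and none passed. Without D11 empty vector replicate 3, 1 of the arrays with a patch of dim spots, the D11 change was -0.80 and passed (limma adjusted p 0.0366). Without H9 empty vector replicate 3, the B3 change of -0.75 passed (limma adjusted p 0.0475). Within slides 1 and 2, which hold all ancestor empty vector arrays, the change was -0.80 and -0.70 in B3, -0.76 and -0.83 in D11, and -0.62 and -0.33 in H9.

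Ordered by mean level, FTR1 stood lowest in B3 with the tRNA (0.15), followed by B3 with the empty vector (0.27), H9 with the empty vector (0.29), D11 with the tRNA (0.31), D11 with the empty vector (0.45) and H9 with the tRNA (0.58). Arrays of neighbouring groups overlapped throughout these 6. The ancestor with the empty vector (1.02) stood apart above them, and the ancestor with the tRNA (1.66) stood apart above that.

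The 21 other tested genes of the listed stretch show the level of change around FTR1. With the tRNA, 15 of them fell in B3, 18 in D11 and 15 in H9, beside 4.55%, 8.59% and 12.7% of all genes that passed. With the empty vector 15 fell in B3, 18 in D11 and 18 in H9, beside 14.1%, 30.1% and 3.82%. None rose in any of these comparisons. With the tRNA their median change came to -0.85 for B3, -0.93 for D11 and -0.84 for H9, and with the empty vector to -0.83, -0.98 and -0.97 for the same lineages. FTR1 thus fell further than the median neighbour with the tRNA, and its change was smaller than that median with the empty vector, which is a description without a test. BEM2, a GTPase-activating protein for Rho1, fell by between 0.98 and 1.13 in all 6 comparisons. Within the ancestor, the median neighbour differed by -0.09 between the tRNA and the empty vector, while FTR1 differed by 0.64.

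**Figure D2:**
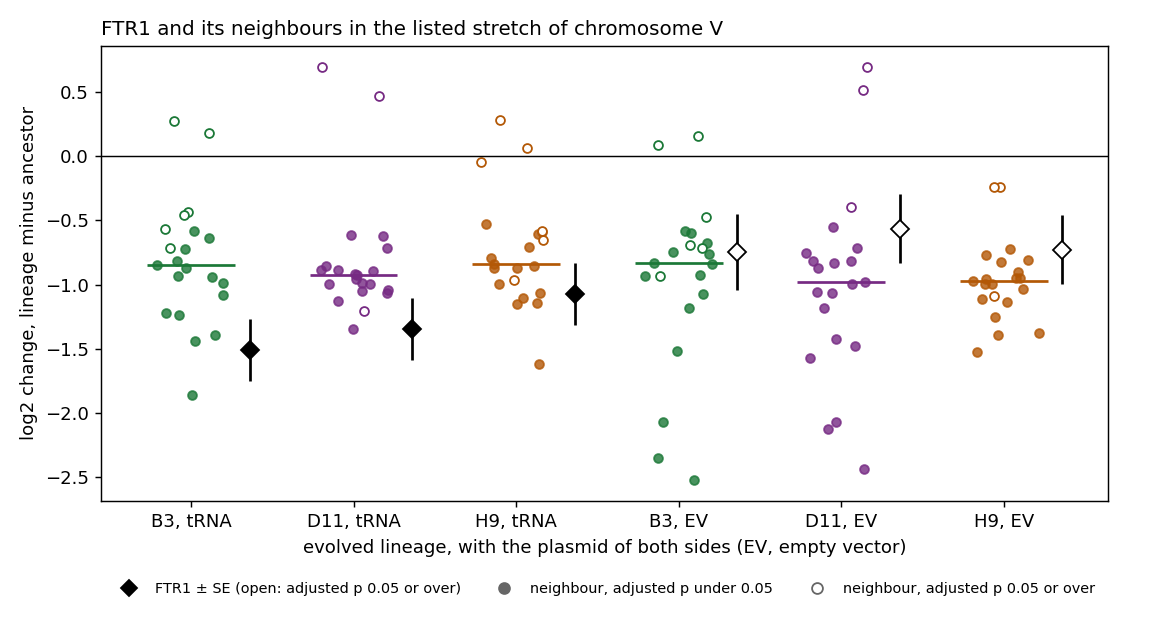
Change of FTR1 (diamonds with SE) and of its 21 neighbours in the listed stretch of chromosome V (circles) in each evolved lineage against the ancestor with the same plasmid (vertical axis, log2 change), filled where the adjusted p was under 0.05 and with a line at the neighbours' median. The medians lie between -0.98 and -0.83, and FTR1 lies below them with the tRNA at -1.51, -1.35 and -1.08 and above them with the empty vector at -0.75, -0.57 and -0.73.

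FET3, the oxidase that works with the permease, passed in no comparison with the ancestor when all spots and arrays were used, and its values in D11 rest on 2 arrays with a patch of dim spots. Its level with the tRNA was 2.06, 1.39 and 0.99 in B3, 1.41, -1.64 and 1.40 in D11, and 1.87, 1.65 and 1.99 in H9, against 2.91, 1.75 and 2.65 in the ancestor. The empty vector groups had 1.48 and 1.57 in B3, 1.57, 1.42 and -1.73 in D11, and 1.43, 1.89 and 0.66 in H9, against 1.03 and 1.18 in the ancestor. The 2 lowest arrays are the D11 arrays with the patch. One FET3 spot, in row 57 and column 68, read 1665 in D11 empty vector replicate 3 and 1269 in D11 tRNA replicate 2. The other FET3 spot, in row 114 and column 37, read 6.94 and 26.0 on the same arrays and was not well above background there. On the other 20 arrays the FET3 spots differed by at most 0.52 on the log2 scale.

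**Figure D3:**
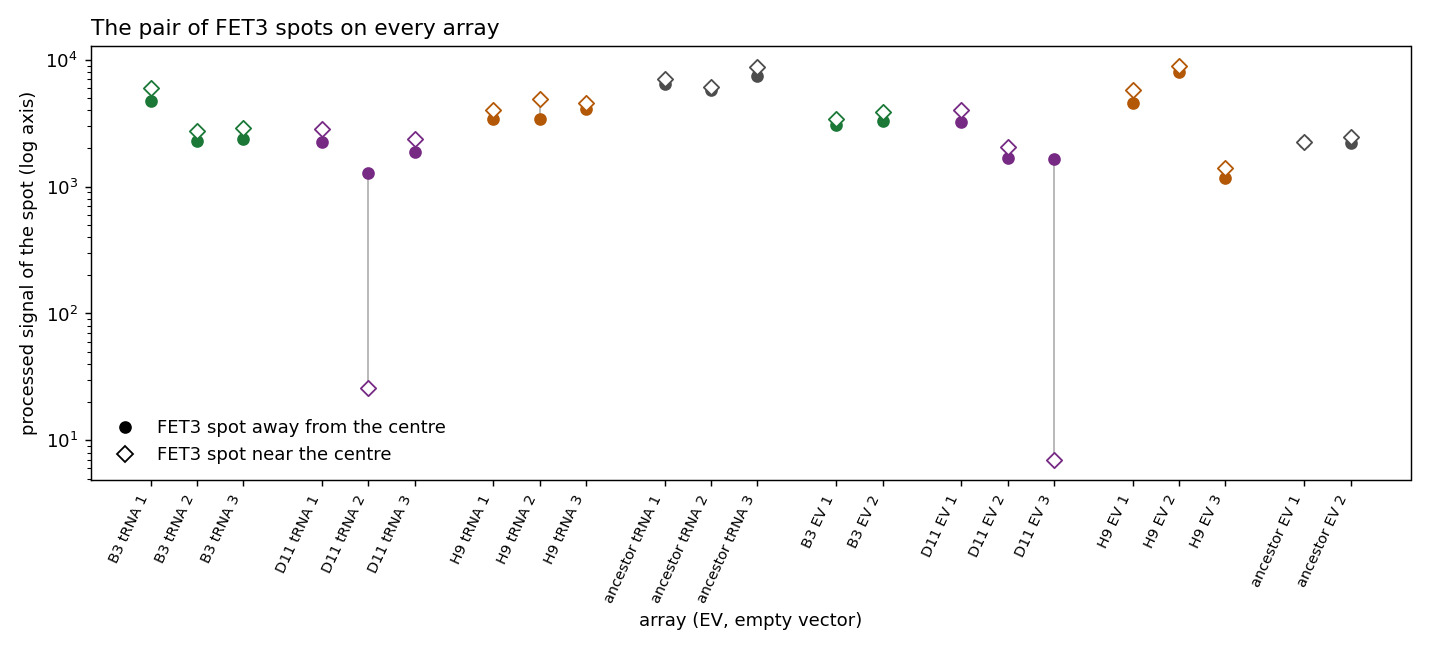
Processed signal of each of the 2 FET3 spots on every array (log axis), joined by a line, with tRNA arrays to the left of empty vector arrays. The spots lie close together on 20 arrays, and the one near the centre drops to 26.0 in D11 tRNA replicate 2 and to 6.94 in D11 empty vector replicate 3.

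With the dimmer spot left out wherever a pair differed over 8-fold, an alternative chosen after seeing the data, FET3 stood at 1.12 in D11 tRNA replicate 2 and at 2.13 in D11 empty vector replicate 3. The mean level in D11 was then 1.31 ± 0.16 with the tRNA, against 2.43 ± 0.61 in the ancestor (SD, n = 3 each). The change of D11 with the tRNA was -1.12 (SE 0.32, limma adjusted p 0.0350), against -2.05 (SE 0.80, limma adjusted p 0.135) with all spots, which passed without D11 empty vector replicate 3 (limma adjusted p 0.0371). Because all groups share the estimate of spread, other FET3 values moved too. The change of FET3 with the tRNA in the ancestor was 1.33 in both fits, with a limma adjusted p of 0.0139 without the dim spots and of 0.308 with them. Neither B3 (-0.96, limma adjusted p 0.115) nor H9 (-0.60, limma adjusted p 0.256) passed against the ancestor with the tRNA, and no lineage passed with the empty vector, where the D11 change was 0.60 (SE 0.36, limma adjusted p 0.201).

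The change of FTR1 was set against that of FET3 on each array, since both genes belong to 1 complex and only FTR1 lies in the listed stretch. With the empty vector, the change of FTR1 minus that of FET3 was -1.17 in B3 (two-sided exact permutation p 0.33, the smallest that 2 against 2 arrays allow) and -0.95 in H9 (two-sided exact permutation p 0.1, the smallest that 3 against 2 arrays allow). With the tRNA the difference was -0.55 in B3 and -0.48 in H9 (two-sided exact permutation p 0.1 each, the smallest that 3 against 3 arrays allow). In these 4 comparisons the arrays of the evolved lineage and of the ancestor did not overlap. In D11 the difference was 0.12 with the empty vector and 0.70 with the tRNA (exact permutation p 1 each), and without the dim spots it was -1.20 (exact permutation p 0.1) and -0.24 (exact permutation p 0.3). No design here can reach a p of 0.05. With the siderophore transporter gene SIT1 in place of FET3, the difference with the empty vector came to -1.96 for B3, -1.43 for D11 and -0.80 for H9, and with the tRNA to -0.56, 0.27 and -0.12 for the same lineages.

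FET4, the low-affinity transporter gene, rose in all 3 evolved lineages with the tRNA. With the tRNA its level was -0.09, 0.47 and 0.51 in B3, 0.59, 0.39 and 0.68 in D11, and 0.66, 0.59 and 0.73 in H9, against -0.56, -0.13 and -0.79 in the ancestor. Every evolved array was above every ancestor array. FET4 rose by 0.79 in B3 (SE 0.18, limma adjusted p 0.0155), by 1.05 in D11 (SE 0.18, limma adjusted p 0.00129) and by 1.15 in H9 (SE 0.18, limma adjusted p 0.000373). The D11 and H9 calls held when any 1 array was left out, and the B3 call was lost without ancestor tRNA replicate 1 or 3 (limma adjusted p 0.0610 and 0.102) and without B3 tRNA replicate 2 or 3 (limma adjusted p 0.0883 and 0.0821). In the empty vector groups the FET4 level was 0.70 and 0.71 in B3, 0.18, 0.53 and 0.24 in D11, and 0.89, 1.19 and 0.62 in H9, against 0.32 and 0.32 in the ancestor. B3 and H9 lay above the ancestor arrays and D11 overlapped them, with changes of 0.38, -0.01 and 0.58 in B3, D11 and H9, none of which passed. The H9 change was 0.72 and passed without H9 empty vector replicate 3 (limma adjusted p 0.0384).

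SIT1, a siderophore transporter gene that is also on chromosome V but outside the listed stretch, varied most between groups. Its level with the tRNA was 0.27, -0.50 and -0.65 in B3, -0.81, -1.35 and -0.76 in D11, and -0.34, -0.19 and -0.37 in H9, against 1.15, -0.16 and 0.97 in the ancestor. The SIT1 level with the empty vector was -0.19 and -0.52 in B3, -0.46, -1.13 and -0.53 in D11, and -1.18, -1.31 and -2.03 in H9, against -1.51 and -1.63 in the ancestor. The ancestor with the tRNA was thus the highest group and the ancestor with the empty vector the lowest. SIT1 fell by 1.62 in D11 with the tRNA (SE 0.32, limma adjusted p 0.00379). In B3 and H9 with the tRNA the changes were -0.94 (limma adjusted p 0.140) and -0.95 (limma adjusted p 0.0650). Changes with the empty vector had the other sign, 1.21 in B3 (SE 0.40, limma adjusted p 0.0511) and 0.86 in D11 (SE 0.36, limma adjusted p 0.0797), while the H9 change was 0.07. The B3 value lay at the threshold and passed when ancestor tRNA replicate 1 or 2, B3 tRNA replicate 1, D11 empty vector replicate 2 or 3, D11 tRNA replicate 2 or H9 empty vector replicate 3 was left out (limma adjusted p between 0.0204 and 0.0498), and the D11 value passed without ancestor tRNA replicate 2 or D11 empty vector replicate 2. With the replicate number as a block, which takes out slide and scan day, both passed (limma adjusted p 0.0302 in B3 and 0.0478 in D11), and within slides 1 and 2 B3 changed by 1.32 and 1.11, and D11 by 1.05 and 0.50. The D11 call with the tRNA held when any 1 array was left out, and without ancestor tRNA replicate 2 the changes of -1.35 in B3 and -1.36 in H9 passed as well.

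ARN1, which imports ferrichrome-type siderophores, followed a similar order on a smaller scale. Its level with the tRNA was -1.19, -1.70 and -1.77 in B3, -1.90, -1.81 and -1.85 in D11, and -1.81, -1.72 and -1.75 in H9, against -0.82, -1.31 and -0.90 in the ancestor. It fell by 0.85 in D11 (limma adjusted p 0.0133) and by 0.75 in H9 (limma adjusted p 0.0187), and the B3 change of -0.55 did not pass, with overlapping arrays. Both calls were lost without ancestor tRNA replicate 1 or 3 (limma adjusted p between 0.0577 and 0.0830), and the H9 call also without H9 tRNA replicate 1 or 3. In the empty vector groups ARN1 stood at -1.66 and -1.52 in B3, at -1.84, -1.97 and -1.54 in D11, and at -1.87, -1.48 and -2.42 in H9, against -2.25 and -2.10 in the ancestor.

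ARN2, a related transporter gene, was narrower still. With the tRNA its level lay between -0.69 and -0.57 in B3, between -0.62 and -0.47 in D11 and between -0.54 and -0.45 in H9, against 0.28, -0.32 and 0.23 in the ancestor. The evolved arrays were all below the ancestor arrays, and ARN2 fell by 0.71, 0.62 and 0.55 in B3, D11 and H9 (limma adjusted p 0.0126, 0.0206 and 0.0269). These calls depended on single arrays, and all 3 were lost without ancestor tRNA replicate 1 (limma adjusted p between 0.0720 and 0.122) or replicate 3 (limma adjusted p between 0.0778 and 0.128). They were also lost without B3 replicate 2 or 3, without D11 replicate 1 or 3, and without any of the H9 replicates, in the comparison of that lineage with the tRNA. ARN2 with the empty vector lay between -0.78 and 0.07 in the evolved lineages, against -0.75 and -0.77 in the ancestor. Without ancestor tRNA replicate 2, the D11 change with the empty vector, 0.43, passed (limma adjusted p 0.0351).

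ENB1, which imports ferric enterobactin, had its lowest mean levels in H9 and D11 with the tRNA. With the tRNA its level was 0.10, -0.12 and -0.20 in B3, -0.33, -0.52 and -0.40 in D11, and -0.56, -0.61 and -0.52 in H9, against 1.18, 0.10 and 0.98 in the ancestor. ENB1 fell by 1.17 in D11 (SE 0.26, limma adjusted p 0.00853) and by 1.32 in H9 (SE 0.26, limma adjusted p 0.00243). The D11 call was lost without ancestor tRNA replicate 3 (limma adjusted p 0.0519), and the B3 change of -0.83 did not pass (limma adjusted p 0.0970) unless ancestor tRNA replicate 2 or H9 empty vector replicate 3 was left out. ENB1 with the empty vector stood at 0.43 and 0.43 in B3, at 0.48, 0.25 and 0.69 in D11, and at -0.65, -0.53 and 0.47 in H9, against 0.25 and 0.23 in the ancestor. H9 replicate 3 was far from the other H9 arrays, and without it the H9 change was -0.83 and passed (limma adjusted p 0.0393), against -0.47 with it.

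The cell wall genes FIT2 and FIT3 lie next to each other on chromosome XV. The level of FIT2 with the tRNA was -1.29, -1.43 and -1.87 in B3, -1.70, -2.08 and -1.57 in D11, and -1.44, -1.40 and -1.53 in H9, against -0.05, -1.70 and -0.31 in the ancestor. Ancestor replicate 2 overlapped the evolved arrays. FIT2 fell by 1.10 in D11 (SE 0.31, limma adjusted p 0.0349), and this call was lost without ancestor tRNA replicate 1 or 3 or any 1 of the D11 tRNA arrays (limma adjusted p between 0.0564 and 0.173). Without ancestor tRNA replicate 2, the FIT2 changes of -1.35 in B3 and -1.28 in H9 passed too. The level of FIT3 with the tRNA was -0.82, -0.44 and -0.78 in B3, -0.89, -0.48 and -0.77 in D11, and 0.13, 0.29 and 0.34 in H9, against 0.65, -0.65 and 0.42 in the ancestor. No FIT3 change passed against the ancestor, with values of -0.82 in B3, -0.85 in D11 and 0.11 in H9, but without ancestor tRNA replicate 2 the B3 and D11 changes passed and the H9 change turned to -0.28 (limma adjusted p 0.610), and the D11 change also without D11 empty vector replicate 3. In the empty vector groups the arrays of FIT2 lay between -2.23 and -1.57 in the evolved lineages, against -2.16 and -2.35 in the ancestor, and those of FIT3 between -0.85 and 0.31, against -1.05 and -1.12 in the ancestor.

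Counted together, 3 of the 9 genes passed in B3 with the tRNA, beside 4.55% of all genes tested, 7 in D11, beside 8.59%, and 5 in H9, beside 12.7%. FET4 was the 1 gene that rose in each, and FTR1 and ARN2 fell in all 3 lineages. The 9 genes had median changes of -0.83 (B3), -1.10 (D11) and -0.75 (H9), against all-gene medians of 0.01, 0.05 and 0.04. The 3 comparisons share the ancestor tRNA arrays. Without ancestor tRNA replicate 2, 7 of the 9 genes passed in B3, beside 3.64% of all genes in that fit, 8 in D11, beside 7.46%, and 7 in H9, beside 11.9%. Without replicate 1 the counts were 1, 4 and 3, and without replicate 3 they were 1, 3 and 3 in the same order. The B3 count was 1 without B3 tRNA replicate 2 or 3, and the H9 count was 3 without H9 tRNA replicate 1 or 3. In D11 it was 9 without D11 empty vector replicate 3 and 5 without D11 tRNA replicate 1 or 3. With the dim spots left out, 8 genes passed in D11, beside 9.93% of all genes, the added one being FET3.

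With the empty vector none of the 9 genes passed in limma in B3, D11 or H9, beside 14.1%, 30.1% and 3.82% of all genes tested. At an unadjusted p under 0.05 there were 3 in B3, beside 29.7% of all genes, 2 in D11, beside 42.8%, and 2 in H9, beside 13%. The arrays of the lineage and of the ancestor did not overlap for 9, 6 and 4 of the genes in the same order, where with 2 ancestor arrays 79.6%, 58.1% and 26% of all genes did not overlap, so these counts are not a result about the iron uptake genes. Median changes of the 9 genes were 0.39 in B3, 0.39 in D11 and 0.22 in H9, against all-gene medians of -0.01, -0.01 and -0.05, and FTR1 was the only gene with a change below 0 in all 3 lineages. These comparisons share the 2 ancestor empty vector arrays. With the dim spots left out SIT1 passed in B3 (1.21, limma adjusted p 0.0422), beside 17.2% of all genes. Without H9 empty vector replicate 3, 3 genes passed in B3 and 2 in H9, and without D11 empty vector replicate 2, 1 passed in B3 and 2 in D11. Calls over all genes moved too, in H9 from 226 to 654 without H9 empty vector replicate 3. Here and elsewhere, a count with an array left out and no share beside it was not set against all genes. Without ancestor tRNA replicate 2, 1 passed in B3 (SIT1), beside 14.3% of all genes, and 2 in D11 (SIT1 and ARN2), beside 30.4%.

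**Figure D4:**
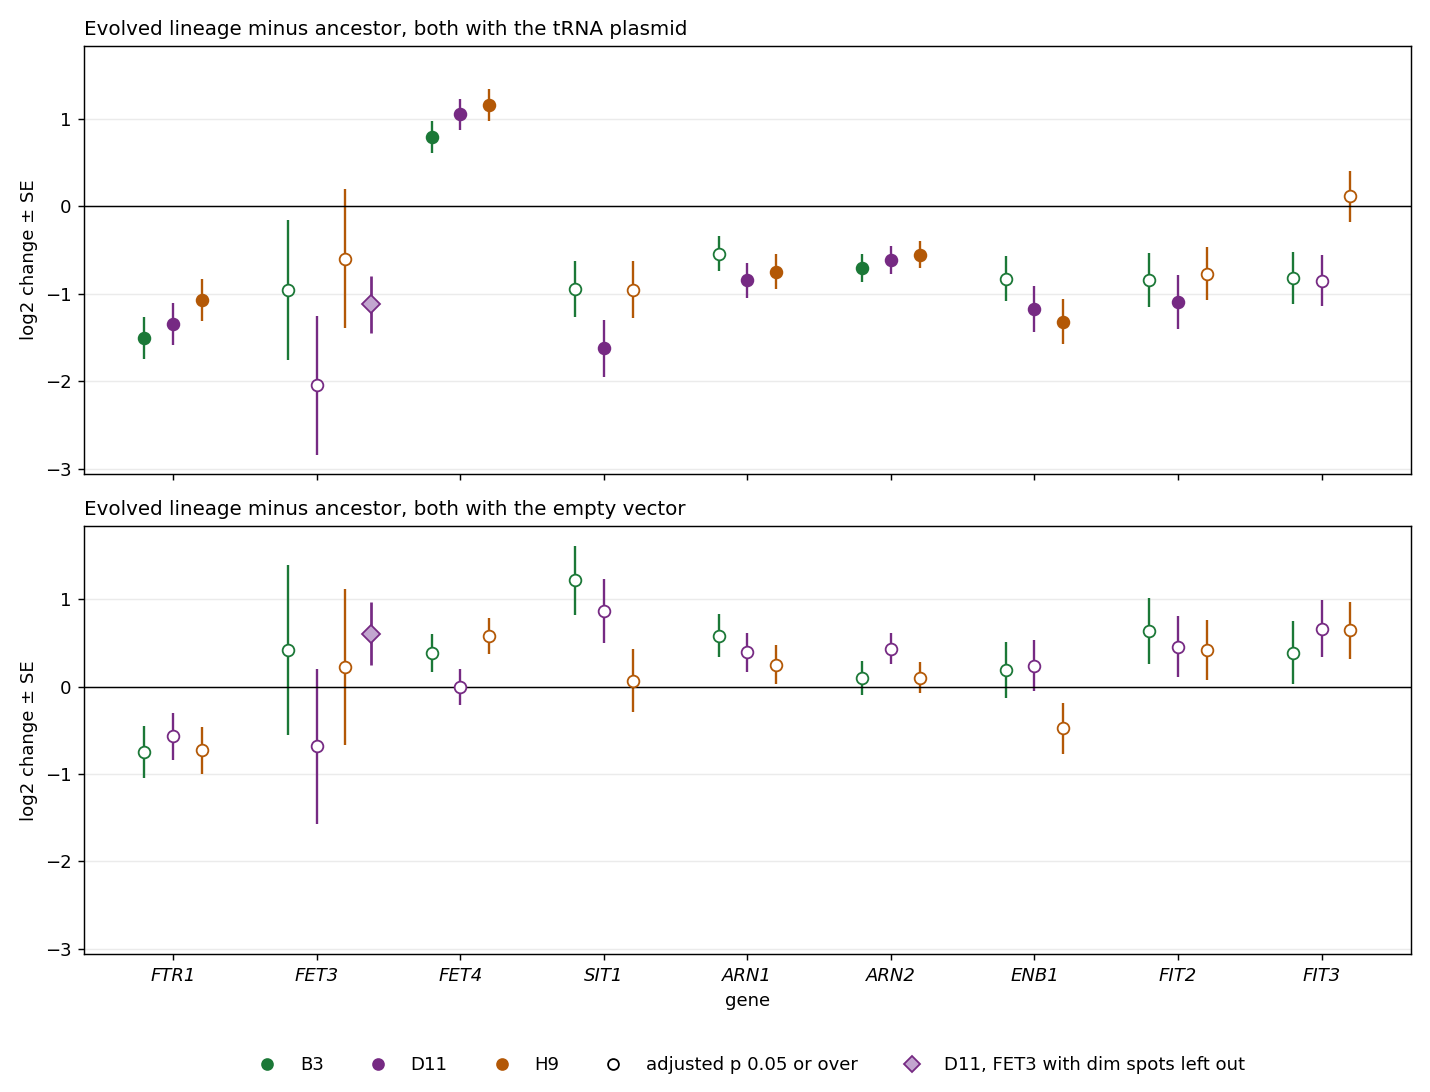
Change of each iron uptake gene in B3, D11 and H9 against the ancestor (vertical axes, log2 change ± SE), with the tRNA in the upper panel and the empty vector in the lower, filled where the adjusted p was under 0.05. Lilac diamonds give FET3 in D11 with the dim spots left out, at -1.12 with the tRNA and 0.60 with the empty vector. FTR1 lies below 0 in both panels, and FET4 and ARN2 pass in all 3 lineages in the upper panel only.

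Groups with the tRNA were compared with groups with the empty vector within each strain. In the ancestor, the 519 genes of chromosome XII had a median change of 0.36 in this comparison. The 4464 genes outside the segments had a median of -0.10. Whether the ancestor groups differ in more than the plasmid was not tested. In the ancestor 6 of the 9 genes passed, beside 21.6% of all genes tested. SIT1 stood at 1.15, -0.16 and 0.97 with the tRNA, against -1.51 and -1.63 with the empty vector, and rose by 2.22 (SE 0.36, 4.67-fold, limma adjusted p 0.000583). FIT2 rose by 1.57 (limma adjusted p 0.00456), FIT3 by 1.22 (limma adjusted p 0.0151), ARN1 by 1.17 (limma adjusted p 0.00190) and ARN2 by 0.825 (limma adjusted p 0.00396). FET4 was the gene that fell, by 0.82 (limma adjusted p 0.00992). FTR1 (0.64, limma adjusted p 0.10), FET3 (1.33, limma adjusted p 0.308) and ENB1 (0.52, limma adjusted p 0.221) did not pass. The groups did not overlap for 8 of the 9 genes, beside 63.1% of all genes, and the median change of the 9 was 1.17, against an all-gene median of -0.06.

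Leaving out ancestor tRNA replicate 2 brought the count in the ancestor to 8, beside 22.9% of all genes in that fit, with FTR1 (0.91, limma adjusted p 0.0194) and ENB1 (0.84, limma adjusted p 0.0291) added. Leaving out ancestor empty vector replicate 1 or 2 brought it to 4 and 3, and leaving out ancestor tRNA replicate 3 to 4. SIT1, ARN1 and ARN2 were among the calls in each of these fits, while FIT3 was lost in all but the first of them, FET4 in the same 3, and FIT2 without ancestor empty vector replicate 2. Without ancestor tRNA replicate 1, 5 genes passed and FIT3 was lost. With the dim spots left out 7 genes passed, beside 25.6% of all genes, FET3 being the gene added.

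In the evolved lineages few of these genes passed with the tRNA, against the empty vector. The counts are near the shares of all genes, so they are no result about the iron uptake genes. None of the 9 passed in limma in B3, beside 1.05% of all genes, and none in D11, beside 3.37%, and at an unadjusted p under 0.05 there were 0 and 1, beside 6.68% and 18.9% of all genes. In D11 that gene was ENB1, with a change of -0.89 (SE 0.26, limma adjusted p 0.0757), which passed without ancestor tRNA replicate 2 or H9 empty vector replicate 3. In H9 1 gene passed, beside 10.7% of all genes. This was SIT1, at -0.34, -0.19 and -0.37 with the tRNA, against -1.18, -1.31 and -2.03 with the empty vector, a rise of 1.20 (SE 0.32, limma adjusted p 0.0298). The call was lost without H9 empty vector replicate 3 (0.94, limma adjusted p 0.0946) and without any 1 of the H9 tRNA arrays (limma adjusted p between 0.0665 and 0.0904).

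**Figure D5:**
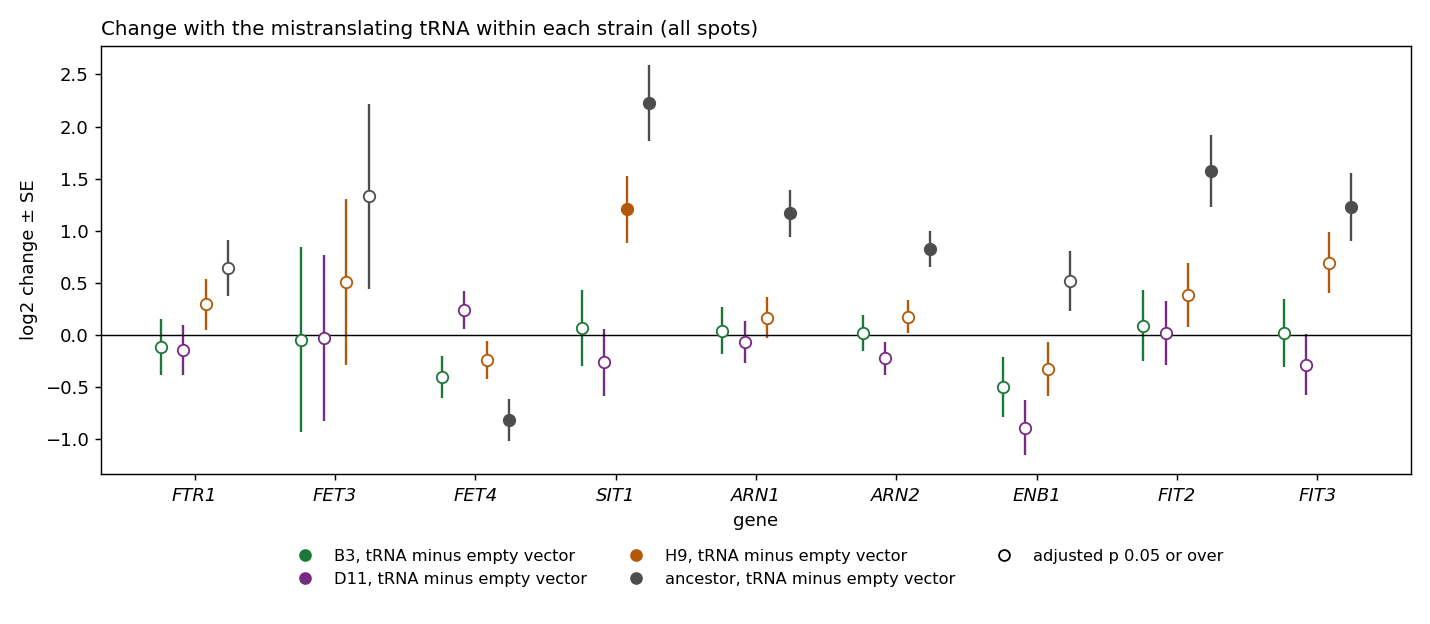
Change of each iron uptake gene with the tRNA, against the empty vector, in B3, D11, H9 and the ancestor (vertical axis, log2 change ± SE, all spots used), filled where the adjusted p was under 0.05. The ancestor reaches 2.22 for SIT1 and -0.82 for FET4, while B3 and D11 have no filled point and H9 has 1, SIT1 at 1.20.

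Whether a lineage responded differently from the ancestor was tested directly, as the change with the tRNA in the lineage minus that in the ancestor. In D11 the responses differed for 7 of the 9 genes, beside 16.4% of all genes tested. The difference was -2.49 for SIT1 (SE 0.49, limma adjusted p 0.00436), -1.56 for FIT2 (limma adjusted p 0.0327), -1.51 for FIT3 (limma adjusted p 0.0296), -1.41 for ENB1 (limma adjusted p 0.0247), -1.24 for ARN1 (limma adjusted p 0.0139), -1.05 for ARN2 (limma adjusted p 0.00967) and 1.05 for FET4 (limma adjusted p 0.0179). The difference for FTR1 was -0.78 (SE 0.36, limma adjusted p 0.143). With the dim spots left out FET3 also differed (-1.73, limma adjusted p 0.0214), which made 8 genes beside 21.2% of all genes. Without ancestor empty vector replicate 1 or 2 the D11 count was 2 and 3, without ancestor tRNA replicate 1 or 3 it was 4 and 3, and SIT1 and ARN2 were among the calls in each of these fits. Without ancestor tRNA replicate 2 it was 8, beside 19.6% of all genes, FTR1 being the gene added (-1.05, limma adjusted p 0.0362). The all-gene count for D11 was 264 without ancestor empty vector replicate 1, against 967 with all arrays.

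In B3 and H9 no difference of response passed in limma, beside 0.913% and 0.846% of all genes, and 6 and 5 genes had an unadjusted p under 0.05, beside 16.3% and 11.2% of all genes. SIT1 in B3 came closest, at -2.16 (SE 0.51, limma adjusted p 0.0544), and passed with the dim spots left out (limma adjusted p 0.0386), beside 2.18% of all genes. Without ancestor tRNA replicate 2, 5 genes passed in B3 (SIT1, ARN1, ARN2, FIT2 and FIT3), beside 2.37% of all genes, and 1 in H9, FIT2, beside 0.727%. Without H9 empty vector replicate 3, SIT1 and ARN1 passed in B3 and ARN1 in H9, without D11 empty vector replicate 3, SIT1 and ARN2 passed in B3, and without B3 tRNA replicate 1, SIT1 passed in B3. The all-gene count for H9 was 339 without H9 empty vector replicate 3, against 50 with all arrays. The 9 genes had median differences of -1.13 (B3), -1.36 (D11) and -0.82 (H9), against all-gene medians of 0.04, 0.08 and 0.08. The 3 comparisons share all 5 ancestor arrays.

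The lineages were also set against each other with the same plasmid. SIT1 was higher in B3 than in H9 with the empty vector (1.15, limma adjusted p 0.0273), beside 27.7% of all genes, and this was lost without either B3 empty vector array and without H9 empty vector replicate 3 (0.88, limma adjusted p 0.0938). FET4 was lower (-0.58, limma adjusted p 0.0217) and ENB1 higher (0.71, limma adjusted p 0.0455) in D11 than in H9 with the empty vector, beside 33.9% of all genes, the ENB1 arrays overlapping. The FET4 call was lost without D11 empty vector replicate 1 or 3 or H9 empty vector replicate 2, and the ENB1 call held only where the array left out was ancestor tRNA replicate 1 or 2, D11 empty vector replicate 2 or H9 empty vector replicate 3. FIT3 was lower in B3 than in H9 with the tRNA (-0.93, limma adjusted p 0.0349), beside 17.9% of all genes, and this was lost without B3 tRNA replicate 1 or 3 or any H9 tRNA array. In D11 the FIT3 difference from H9 with the tRNA was of like size (-0.96, limma adjusted p 0.0511) with arrays apart, and it passed with the dim spots left out (-0.98, limma adjusted p 0.0321) and without ancestor tRNA replicate 1 or 2, D11 empty vector replicate 1 or 3 or H9 empty vector replicate 3. Calls were also gained with the empty vector, for SIT1 in D11 against H9 without ancestor tRNA replicate 2 (0.80, limma adjusted p 0.0295) or D11 empty vector replicate 2 (limma adjusted p 0.0389), for ENB1 in B3 against H9 without ancestor tRNA replicate 2 (0.67, limma adjusted p 0.0463) or H9 empty vector replicate 3 (limma adjusted p 0.00643), and for ARN2 in D11 against H9 without D11 empty vector replicate 2 (limma adjusted p 0.0379). The counts between lineages are below the shares of all genes, and are no result about the iron uptake genes as a group. FTR1 did not differ between any pair of lineages in this test, with changes between -0.43 and 0.16.

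Across the 22 arrays, the genes whose levels were most like that of FTR1 were EMP65 (Pearson r 0.888), SCC4 (0.877) and MYG1 (0.840), all of which lie in the same listed stretch. For SIT1 they were ARN1 (0.884), FIT2 (0.879) and the glucose transporter gene HXT2 (0.829). FET4 was most like CTR1 (0.834), the high-affinity copper transporter gene, then RBH2 (0.820) and the ferric reductase gene FRE1 (0.813). For FET3 the nearest genes with all spots were TRF5 (0.934), YLL053C (0.928) and PHO87 (0.925), and with the dim spots left out they were ARN1 (0.879), ARN2 (0.863) and SIT1 (0.843). These correlations describe arrays that fall into 8 groups and carry no p-value.

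Other genes of iron and metal handling were counted by list. Of all genes tested, 4.55% passed in B3, 8.59% in D11 and 12.7% in H9 with the tRNA. With the empty vector 14.1%, 30.1% and 3.82% passed in the same order. The lists are short, and a count near these shares is no result about a list. Of 7 genes of reductases and FIT1, the third Fit protein, 1 rose in each of D11 and H9 with the tRNA and none changed in B3. With the empty vector 1 fell in B3, 2 rose in D11 and 1 rose in H9. FIT1 changed by -0.55 in B3, 0.56 in D11 and 0.58 in H9 with the empty vector, and by 0.51 in D11 with the tRNA. It lies at the right end of chromosome IV, where the median of 255 genes changed by -0.10 in B3, 0.49 in D11 and 0.52 in H9 with the empty vector. The reductase gene FRE1 rose by 1.08 in H9 with the tRNA, and FRE6 rose by 0.87 in D11 with the empty vector. Both lie on chromosome XII, whose 519 genes had median changes of -0.40 and 0.48 in these comparisons.

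The oxidase needs copper, and of 5 genes of its copper supply 2 fell in B3, 2 rose in D11, and 2 rose and 1 fell in H9 with the tRNA. With the empty vector none passed in B3, 1 rose and 1 fell in D11 and 1 rose in H9. MAC1, the copper-sensing activator, fell by 0.65 in B3 and by 0.45 in H9 with the tRNA. The copper transporter gene CTR3, on chromosome XII, rose by 1.68 in D11 with the tRNA, where the median of that chromosome changed by 0.12. CCC2, which loads copper into Fet3 and also lies at the right end of chromosome IV, rose by 0.61 in D11 and by 0.70 in H9 with the empty vector, rose by 0.43 in H9 with the tRNA, and fell by 0.49 in B3 with the tRNA. CTR1, the gene most like FET4, rose by 1.25 in D11 and by 1.41 in H9 with the tRNA (limma adjusted p 0.0153 and 0.00470) and fell by 1.10 in D11 with the empty vector (limma adjusted p 0.0229), where FET4 changed by -0.01. In the ancestor CTR1 fell by 1.70 with the tRNA, against the empty vector (limma adjusted p 0.00248). In that comparison MAC1 rose by 0.93 (limma adjusted p 6.31e-05) and CCC2 by 0.47 (limma adjusted p 0.0238).

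Among 7 regulators, GRX4, a glutaredoxin that inhibits Aft1 when iron is ample, fell by 1.22 in D11 and by 0.65 in H9 with the tRNA, and by 0.52 in B3, 1.41 in D11 and 0.95 in H9 with the empty vector. GRX4 lies in the rest of the right end of chromosome V. The study lists that part too as deleted from a chromosome copy in most of its evolved lines. The median of 29 genes there changed by -0.98 in D11, -0.87 in H9 and -0.03 in B3 with the tRNA. FRA1 rose by 0.56 in D11 with the empty vector and fell by 0.66 in H9 with the tRNA. It lies on chromosome XII, whose 519 genes had median changes of 0.48 and -0.40 in these comparisons. AFT1 rose by 0.53 in D11 with the empty vector. With the tRNA, against the empty vector, AFT1 rose by 0.82 in the ancestor (limma adjusted p 0.00138) and by 0.49 in H9 (limma adjusted p 0.0321). It did not pass in B3 (0.21) or D11 (0.18). In the ancestor FRA1 also rose, by 0.52 (limma adjusted p 0.0244), and GRX3 fell by 0.39 (limma adjusted p 0.0478), while the remaining regulators did not pass. The list as a whole had 0, 1 and 2 genes that fell and none that rose in B3, D11 and H9 with the tRNA, and with the empty vector 1, 1 and 1 that fell and 3 that rose in D11 alone.

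Of 5 other genes of the low-iron response, 1, 1 and 3 fell in B3, D11 and H9 with the tRNA and none rose, and with the empty vector 1 rose in B3, 2 in D11 and none in H9. The heme oxygenase gene HMX1 fell by 0.63 in B3, 0.50 in D11 and 1.12 in H9 with the tRNA and rose by 0.65 in D11 with the empty vector. TIS11, which directs the decay of iron-consuming transcripts, fell by 1.52 in H9 with the tRNA and rose by 1.21 in B3 and by 0.83 in D11 with the empty vector. In the ancestor HMX1 was higher by 1.65 with the tRNA than with the empty vector (limma adjusted p 7.24e-06), and TIS11 by 1.97 (limma adjusted p 0.000224). HMX1 also rose with the tRNA in B3 (0.99, limma adjusted p 0.0036) and in H9 (0.79, limma adjusted p 0.00499). Its D11 change of 0.50 did not pass (limma adjusted p 0.0628), and TIS11 passed in none of the evolved lineages. Both lie on chromosome XII, whose median change was 0.36 in the ancestor with the tRNA, against the empty vector. ISU2, a scaffold for iron-sulfur clusters, fell by 0.65 in H9 with the tRNA.

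Of 5 genes of vacuolar and mitochondrial iron transport, the oxidase gene FET5 fell by 0.52 in B3 with the empty vector, and no other passed in the 6 comparisons with the ancestor. Of 5 genes of divalent metal and zinc uptake, none passed with the tRNA. With the empty vector SMF1, a manganese transporter, fell by 0.71 in B3 and by 0.75 in D11, and SMF2 fell by 0.36 in D11. The zinc transporter gene ZRT2, on chromosome XII, rose by 0.73 in D11 with the empty vector, where the median of that chromosome changed by 0.48. Of 6 hypoxic genes that Rox1 represses, as it does FET4, or that encode Rox1, 1 rose in each of D11 and H9 with the tRNA, and 1 in each of B3 and D11 with the empty vector. ANB1, the hypoxic form of translation factor eIF5A, rose by 1.53 in B3 and by 2.43 in D11 with the empty vector and by 0.73 in D11 with the tRNA, and HEM13, of heme synthesis, rose by 0.40 in H9 with the tRNA.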

How the data were processed

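Total RNA was extracted with hot phenol and hybridised to Agilent one-colour yeast arrays, which the authors scanned and processed with Agilent Feature Extraction 10.7.3.1. The deposited scanner values are intensities, from which that software had subtracted the background and a spatial trend. The deposited series values are log2 signals that equal the log2 background-subtracted signal plus a constant for each array (within 0.001), with non-positive spots listed at 0, which were treated as missing. Direction and centring of these values followed from that comparison, and they served as an alternative.

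Here the log2 processed signal of each spot was centred on the array median, as the study's methods centre arrays. Control spots and outlier spots were left out, and spots were averaged per probe, then probes per gene. A probe stayed in if some group had it well above background on all of its arrays, and 5912 of 6225 genes passed this filter. Names came from RefSeq by systematic name (5720 genes matched), and gene order, not coordinates, was taken from it, since its build differs from that of the array design. Groups were compared in 1 limma model (limma 3.58.1, R 4.3.3) with Benjamini-Hochberg adjustment over all genes tested. The change of FTR1 minus that of FET3 or SIT1 was tested with exact permutation tests over arrays, in Python 3.11.15 with numpy 2.4.6. The model scripts were tested on simulated data.

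The members, the gene lists and the tests were chosen with earlier results of these data known. All 9 iron uptake genes are named. From each list of other genes, at most 3 that passed against the ancestor are named, by smallest adjusted p. Besides these, CTR1 is named for its likeness to FET4, GRX3 for its change with the tRNA in the ancestor, and BEM2 as an example of a neighbour. Alternatives were another percentile (75), the median over genes outside the copy number segments, quantile normalisation, normexp (offset 50), the series values, filters, a replicate block, only the groups compared, a 2-fold minimum, the methods' t-test and leaving out each array. The normexp alternative used the median spot signal, because no mean signal was in the files used here. Alternatives chosen after seeing the data were leaving out dim spots and leaving out both D11 arrays that have a patch of them. The number of arrays limits the precision.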

Additional observations from a re-analysis of the deposited data

Results flagged for a closer look

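The response to the tRNA differed between D11 and the ancestor in a test of the difference itself for 7 iron uptake genes, by -2.49 for SIT1, -1.24 for ARN1, -1.05 for ARN2, -1.41 for ENB1, -1.56 for FIT2, -1.51 for FIT3 and 1.05 for FET4 (limma, adjusted p between 0.00436 and 0.0327), beside 16.4% of all genes. The number was 2 or 3 when 1 of the ancestor empty vector arrays was left out, and SIT1 and ARN2 passed in both of these fits. Evolved lineages with the same plasmid differed from each other for SIT1 (1.15, B3 minus H9 with the empty vector), FET4 (-0.58, D11 minus H9 with the empty vector), ENB1 (0.71, D11 minus H9 with the empty vector) and FIT3 (-0.93, B3 minus H9 with the tRNA). These are 1, 2 and 1 of the 9 genes, beside 27.7%, 33.9% and 17.9% of all genes in the same comparisons, so below the general share, and each call was lost when single arrays were left out. The cause of these differences was not tested.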

How the results depend on the processing

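Of the iron uptake genes over the 3 lineages, 0 calls were made against the ancestor with the empty vector and 15 with the tRNA. For the tRNA against the empty vector within a strain there were 7 over the 4 strains, 6 of them in the ancestor and 1 in H9. Differences of response gave 7 calls, and comparisons between lineages gave 4. For the empty vector the number was 2 with the median over genes outside the segments, 1 with quantile normalisation, 1 with normexp, 1 with the series values, 1 with probes well above background on every array, 8 with only the groups compared, 4 with the methods' t-test and 3 after its adjustment, 1 with the dim spots left out and 2 without both D11 arrays. For the tRNA it was 8 with only the groups compared, 9 with a 2-fold minimum, 6 with the methods' t-test and 1 after its adjustment. Within strains it was 3 with that t-test and 0 after adjustment (unadjusted p under 0.05 in limma for 10 genes over the 4 strains). Between lineages it was 1 with a 2-fold minimum. With 1 array left out, the numbers ranged from 0 to 5, 7 to 22, 4 to 10, 2 to 14 and 2 to 7 in the order given first.

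Replicate numbers, which match slides, did not pair the samples: deviations of same-numbered arrays had a median correlation of 0.02, against -0.01 for others. With the replicate block the number for the empty vector was 2 (SIT1 in B3 and D11), and the block moved no other of these numbers by over 1.5 times.

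The FTR1 change with the empty vector passed in D11 with the series values (-0.74) and without both D11 arrays (-0.80), and in B3 (-0.75) with only the groups compared and with the t-test before and after adjustment. With the tRNA, the changes of -1.51 in B3, -1.35 in D11 and -1.08 in H9 did not pass the adjusted t-test, and H9 (-1.08) also missed its unadjusted threshold. With 1 array left out, FTR1 with the empty vector lay between -0.78 and -0.72 in B3 and between -0.80 and -0.42 in D11.

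The change of FTR1 minus that of FET3 reversed in D11. With the empty vector it was -0.40 with normexp, -1.27 with the series values and -1.20 with the dim spots left out. It was -1.19 with the replicate block and -1.19 without both D11 arrays, and both of these settings drop D11 empty vector replicate 3, so they are not separate results. With SIT1 in place of FET3, which is another quantity, the value was -1.43. With 1 array left out, the change of FTR1 minus that of FET3 ranged from -1.19 to 0.77. With the tRNA it was -0.24 with the dim spots left out and -0.37 without both D11 arrays, and with 1 array left out it ranged from -0.37 to 1.23. Leaving out the low FET3 spots alone was thus enough to turn the sign.

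Of single-gene values, 3486 kept their call with 1 array left out, 52 gained and 92 lost it, and under the other settings 2023 kept, 52 gained and 73 lost it, and none reversed a call. All-gene counts moved by over 1.5 times in every comparison. For the tRNA against the ancestor they were 269 (38 to 403) in B3, 508 (95 to 788) in D11 and 753 (126 to 1155) in H9, and for the empty vector 832 (201 to 3238), 1781 (401 to 2243) and 226 (1 to 654). Within strains they were 62 (7 to 269), 199 (0 to 497), 631 (2 to 1189) and 1278 (236 to 1947) in B3, D11, H9 and the ancestor, and for differences of response 54 (8 to 825), 967 (264 to 1594) and 50 (6 to 339). Between B3 and H9 they were 1637 (381 to 2250) with the empty vector and 1060 (158 to 1741) with the tRNA, and between D11 and H9 2006 (2 to 2242) with the empty vector. Over all settings, those with an array left out included, the all-gene median moved by at most 0.10.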
